A study of Mus musculus with 6 samples.

Results

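The clock genes described here are the 10 genes *Arntl*, *Clock*, *Nr1d1*, *Nr1d2*, *Per1*, *Per2*, *Per3*, *Cry1*, *Cry2* and *Dbp*, chosen by symbol from the 55394 genes measured. Each symbol occurred once, and for all 10 the Ensembl identifier was the one that GENCODE M21 gives to the symbol. They were measured by SMART-seq in group 2 innate lymphoid cells (ILC2s), tissue lymphocytes of type 2 immunity, that were sorted from lungs of wild type C57BL/6 neonates at 1000 cells per library. The study's gate for ILC2s took live CD45+ cells with CD90.2 and CD25 but without a cocktail of lineage markers, CD3e, B220 and Gr1 among them. The Abx group held 3 libraries from pups whose dams drank ampicillin, metronidazole, neomycin and vancomycin between gestation days 10 and 14. The Con group held 3 libraries from pups of dams without antibiotics. The number and age of the pups behind a library, the time of day at which lungs were taken and the lighting of the animal room are not given in the sources used here, so a clock phase could be read only from the transcripts themselves.

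The circadian clock is a feedback loop of transcription that runs with a period of about a day in nearly every cell. BMAL1, the product of *Arntl*, pairs with CLOCK and activates *Per* and *Cry* genes, *Nr1d1*, *Nr1d2* and *Dbp* through E-box sequences. PER and CRY proteins then inhibit that pair, the REV-ERB proteins made from *Nr1d1* and *Nr1d2* silence *Arntl* through ROR elements that RORα also binds, and DBP activates genes through D-boxes. In a population of cells in step, *Arntl* and the group of *Nr1d1*, *Dbp* and *Per3* peak at opposite times of the day. In ILC2s, RORα and NFIL3, another factor of this loop, are also known for their part in the development of the lineage.

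The 3 kinds of element can be seen in RefSeq promoters of the members (GRCm38.p6, from 250 bases before a start site to 50 after it), shown here because the products of the members measured below act through them. Capitals mark an E-box (CACGTG), a D-box (TTATGTAA or TTACGTAA) or a ROR element (TAGGTCA), searched on both strands, and the motifs did not overlap each other. The windows are chr7:113207261-113207560 on the plus strand for *Arntl*, chr11:69098699-69098998 on the plus strand for *Per1*, chr10:85185005-85185304 on the minus strand for *Cry1* and chr4:151044616-151044915 on the minus strand for *Per3*.
Arntl: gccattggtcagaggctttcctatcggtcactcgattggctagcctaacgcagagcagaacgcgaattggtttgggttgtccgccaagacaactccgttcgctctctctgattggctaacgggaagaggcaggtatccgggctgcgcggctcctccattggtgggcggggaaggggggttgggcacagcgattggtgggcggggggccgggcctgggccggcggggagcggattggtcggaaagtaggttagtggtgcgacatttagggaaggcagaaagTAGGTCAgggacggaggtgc
Per1: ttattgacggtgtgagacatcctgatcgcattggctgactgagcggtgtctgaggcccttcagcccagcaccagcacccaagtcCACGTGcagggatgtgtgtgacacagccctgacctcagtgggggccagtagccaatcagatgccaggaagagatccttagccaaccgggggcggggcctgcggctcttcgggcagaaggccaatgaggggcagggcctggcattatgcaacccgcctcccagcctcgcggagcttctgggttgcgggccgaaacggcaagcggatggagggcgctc
Cry1: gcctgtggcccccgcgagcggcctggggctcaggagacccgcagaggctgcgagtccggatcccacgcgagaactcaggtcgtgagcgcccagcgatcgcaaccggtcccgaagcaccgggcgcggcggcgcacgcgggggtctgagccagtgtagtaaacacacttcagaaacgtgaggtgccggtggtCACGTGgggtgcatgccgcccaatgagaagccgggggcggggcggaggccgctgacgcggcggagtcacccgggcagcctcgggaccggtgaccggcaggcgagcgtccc
Per3: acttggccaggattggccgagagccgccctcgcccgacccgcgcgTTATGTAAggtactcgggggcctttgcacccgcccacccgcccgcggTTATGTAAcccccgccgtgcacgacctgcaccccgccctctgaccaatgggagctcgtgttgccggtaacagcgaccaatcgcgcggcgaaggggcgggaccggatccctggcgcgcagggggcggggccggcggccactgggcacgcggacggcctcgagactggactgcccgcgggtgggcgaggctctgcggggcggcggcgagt
The *Per1* and *Cry1* windows each hold 1 E-box, the *Per3* window holds 2 D-boxes, and the *Arntl* window holds 1 ROR element, just after the start site. Of the 32851 promoters in the table, 7.15% hold the E-box, 1.06% a D-box and 2.61% the ROR element. The table has 13 windows for 9 of the 10 members and none for *Per2*. In the other windows of the members none of these letters occurs, which says nothing of elements elsewhere in the genes. A match is a description of the letters only.

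Levels are given as FPKM, fragments scaled to exon length and to the number of mapped fragments, so they can be compared between genes of different length. The libraries summed to between 420941 and 489262 FPKM, and between 7074 and 9203 genes reached 1 FPKM. Read numbers are unknown, which leaves no way to state a counting error. A gene at 0 may still have been transcribed: *Polr2h*, which encodes part of RNA polymerase II, had 71.3 FPKM in Abx library 2 but 0 in Abx library 3. The summed markers of ILC2s lay between 2165 and 2607 FPKM across Con and between 1743 and 2322 FPKM in Abx. *Gata3* and *Il7r* were at 18.1 FPKM or more in all libraries, but *Il1rl1*, which encodes the IL-33 receptor that defines many lung ILC2s, reached 2.94 FPKM at most in Con and 0.03 FPKM at most in Abx. *Icos* and *Areg*, a costimulatory receptor and a growth factor of ILC2s, did not overlap and were lower in Abx. They were at 240.5 FPKM or more and 657 FPKM or more in Con but at most 120.3 FPKM and 393 FPKM in Abx. *Ptprc*, which encodes CD45, did not overlap in the other direction, at most 22.9 FPKM in Con but 25.4 FPKM or more in Abx. Of the 10 ILC2 markers tested, 5 had a higher mean log value in Abx and 5 a lower one. Markers of T cells summed to 126 to 151 FPKM across Con and 271 to 317 FPKM in Abx, and those of B cells to 415 to 520 FPKM and 914 to 1063 FPKM, although both lineages were gated out in the sort. *Cd79b*, a B cell receptor subunit, went against that sum, at 69.5 to 117 FPKM in Con but 31.0 to 57.4 FPKM in Abx. Of the 5 T cell markers tested, 4 had a higher mean log value in Abx and 1, *Trac*, a lower one. *Trac*, which encodes part of the T cell receptor, was at 11.67, 3.01 and 10.82 FPKM across Con and 21.18, 14.05 and 0.22 FPKM in Abx. *Cd4* was above 0 in Abx library 2 only. Other cell types left transcripts as well. Erythroid markers, mostly *Hbb-bs*, summed to 2829 to 6338 FPKM across Con and 1313 to 3870 FPKM in Abx. Epithelial markers summed to 42.7 to 1158 FPKM and 55.8 to 141 FPKM, and myeloid markers to 115 to 364 FPKM and 176 to 369 FPKM. The part of these signals and differences in the clock gene values was not tested. *Xist*, which coats the inactive X chromosome, reached at least 3.78 FPKM in all Con libraries and was listed at 0 in all Abx libraries. For every difference between the groups given below, the antibiotic exposure and what accompanies this *Xist* difference cannot be told apart. In bulk libraries, fewer cells with a transcript and less of it per cell cannot be told apart either.

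The members formed a set of 5 with a mean above 5 FPKM over the 6 libraries and a set of 5 with a mean below 1 FPKM. *Nr1d1* had the highest mean, 12.2 FPKM, and was followed by *Cry1* at 10.2 FPKM, *Nr1d2* at 9.23 FPKM, *Arntl* at 7.23 FPKM and *Dbp* at 5.85 FPKM. Below them lay *Cry2* at 0.702 FPKM, *Per3* at 0.585 FPKM, *Clock* at 0.535 FPKM, *Per1* at 0.515 FPKM and *Per2* at 0.0217 FPKM. The ranges over libraries overlapped for every pair of neighbours in this order, so the order within each set is not resolved. *Arntl* was above *Clock*, its partner, in 6 of 6 libraries, and *Cry1* was above *Cry2* in 6 of 6. *Npas2*, which can take the place of *Clock*, reached 0.03 FPKM at most, and *Arntl2*, a paralog of *Arntl*, 0.02 FPKM at most. The exons of the 5 lower members cover 5631 to 13727 bases in the annotation, those of the 5 higher members 2993 to 7523 bases, against a median of 3536 bases over the genes tested. The part of exon length in these levels was not tested.

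**Figure D1:**
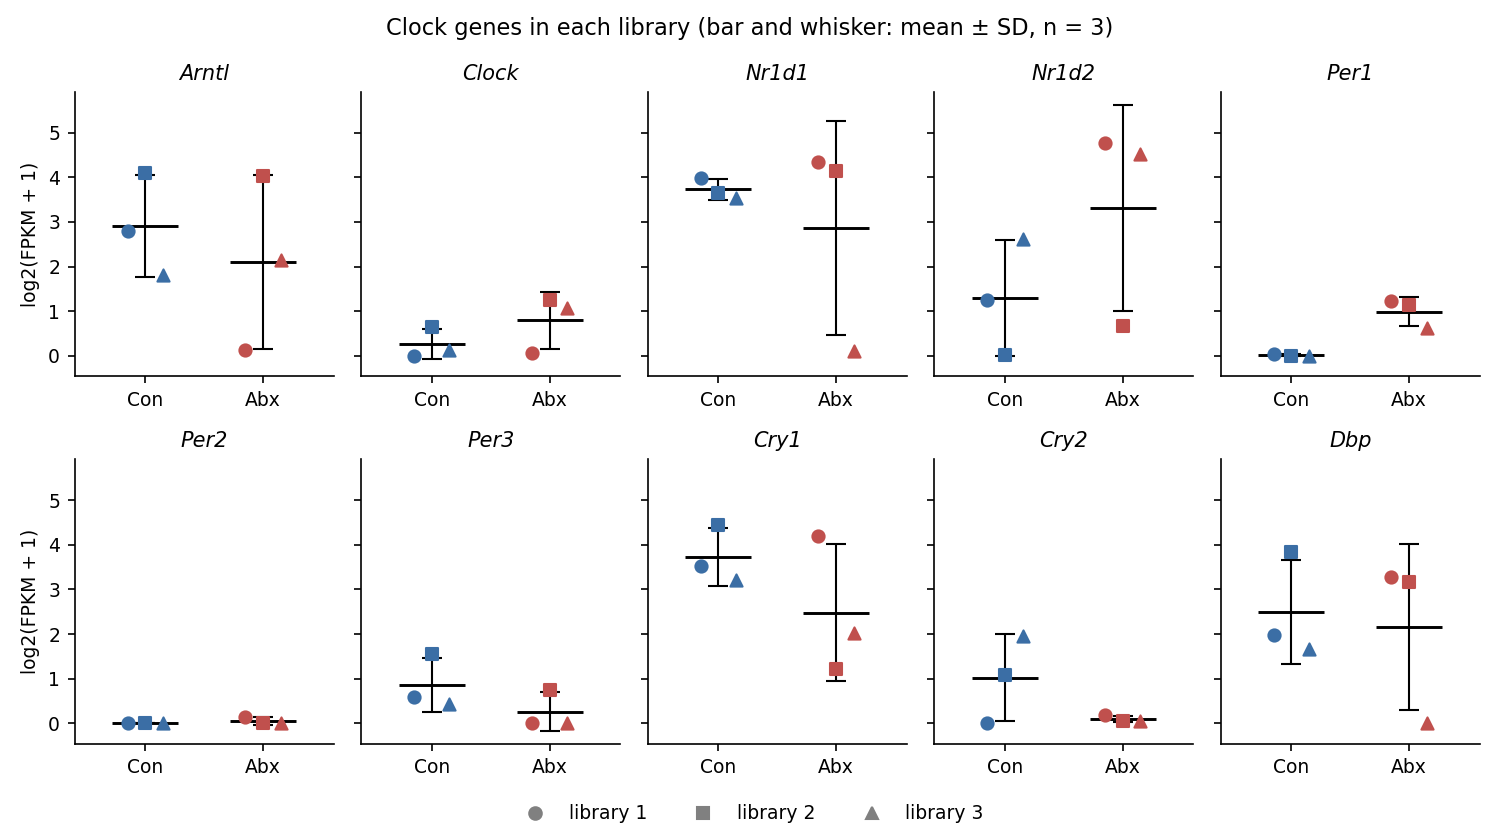
Each panel plots 1 clock gene as log2(FPKM + 1) in the 3 Con (blue) and 3 Abx (red) libraries. Marker shape gives the library number, and the black bar and whiskers give the mean ± SD of that log value (n = 3). The groups overlap in 9 of the 10 panels, and only *Per1* has all Abx points above all Con points.

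To ask whether antibiotic exposure of the dams went with a change of the clock in the pups' ILC2s, Abx was compared with Con across the 8718 genes that reached 1 FPKM in 3 or more libraries. Differences of log2(FPKM + 1) were tested with limma (moderated, two-sided), p-values were adjusted over those genes by the Benjamini-Hochberg method, and calls needed an adjusted p under 0.05 together with more than a 2-fold difference. Differences on this scale understate the change of low genes. Of all genes tested, 0.0574% were called. *Arntl*, *Nr1d1*, *Nr1d2*, *Cry1* and *Dbp* passed the filter on low values, and limma called 0 of these 5. At an unadjusted p under 0.05 the count was also 0 of 5, where 11.0% of all genes tested passed. Of the 5, 1 had a higher mean in Abx and 4 a lower mean, with a median log2 fold change of -0.80 against -0.06 over all genes tested. Without Abx library 3 the median of the 5 was 0.51, with 3 higher and 2 lower. The intervals were wide enough to hold a change of over 4-fold in at least 1 direction for each gene, so the data do not show that the clock genes were alike in the groups.

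*Arntl* (chromosome 7, 113207465 to 113314126 in GRCm38), the activator whose level swings with the clock, was at 5.97, 16.0 and 2.52 FPKM for Con libraries 1, 2 and 3. The values for Abx libraries 1, 2 and 3 were 0.09, 15.4 and 3.41 FPKM. Abx library 2 thus matched the highest Con library, while Abx library 1 was far below all others. The log2 fold change was -0.80 (standard error, SE, 1.15, limma adjusted p = 0.854), with a 95% interval of -3.47 to 1.87. It turned to 0.19 without Abx library 1.
*Clock* (chromosome 5, 76209868 to 76304792), the DNA-binding partner of BMAL1, was at 0, 0.57 and 0.1 FPKM across Con and 0.05, 1.38 and 1.11 FPKM in Abx. It was under the filter. The groups overlapped because Abx library 1 lay below Con libraries 2 and 3 (two-sided exact permutation of the group labels, mean log2(FPKM + 1), p = 0.3, which cannot go below 0.1 with 3 libraries in each group). Abx library 1 was thus low in both activators, but for *Clock* it lay within the range of Con, close to 0.

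Of the REV-ERB repressors of *Arntl*, *Nr1d1* (chromosome 11, 98767932 to 98775333) varied little within Con, at 14.9, 11.6 and 10.7 FPKM. In Abx it was at 19.3 and 16.6 FPKM in libraries 1 and 2, above every Con library, and at 0.07 FPKM in library 3. Its log2 fold change was -0.87 (SE 1.15, limma adjusted p = 0.843), and 0.51 without Abx library 3. The exons of *Nr1d1* share 263 of 3077 bases with *Thra* on the opposite strand, and reads of such a pair cannot be told apart where strand is not recorded. *Thra* was at 0.2 FPKM or less in every library.
*Nr1d2* (chromosome 14, 18204054 to 18239127) was at 1.37, 0.02 and 5.12 FPKM across Con and at 26.3, 0.58 and 22.0 FPKM in Abx. Abx libraries 1 and 3 were over 4 times the highest Con library, and Abx library 2 lay within the range of Con. The log2 fold change was 2.02 (SE 1.28, limma adjusted p = 0.647), with a 95% interval of -0.96 to 5.00. Without Abx library 2 it was 3.35 (limma adjusted p = 0.16), and it was 1.29 without Abx library 1, 1.42 without Abx library 3 and 1.39 without Con library 2. In Abx library 3 the paralogs therefore stood apart, with *Nr1d2* near its highest value and *Nr1d1* near 0. *Nr1d1* was above *Nr1d2* in 3 of 3 Con libraries and in 1 of 3 Abx libraries.

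The period genes, which encode the PER inhibitors, were all near or below 1 FPKM. *Per1* (chromosome 11, 69095217 to 69109960) was at 0.03, 0 and 0 FPKM across Con and at 1.33, 1.2 and 0.53 FPKM in Abx. It was the only member whose groups did not overlap. The difference of mean log2(FPKM + 1) was 0.98 (exact two-sided permutation test, p = 0.1, the smallest possible). *Per1* was under the filter with 2 libraries at 1 FPKM. With no filter, its difference had a standard error of 0.24, an unadjusted limma p of 0.00706 and an adjusted p of 0.573. In this unfiltered fit 1191 of 19564 genes had an unadjusted limma p under 0.05, and *Per1* was the only member among them. The unadjusted limma p there was 0.23 for *Clock*, 0.284 for *Per2*, 0.202 for *Per3* and 0.124 for *Cry2*. All 10 members were above 0 in 3 libraries or more, and 1 of 10 did not overlap, where the share was 15.1% over the 14239 genes of which that held, or 8.08% with Abx above Con. Of the 5521 such genes under the filter, 11.7% did not overlap, and 7.43% had Abx above Con. The count of 1 among 10 members is near that background.
*Per2* (chromosome 1, 91415982 to 91459324) was listed at 0, 0.01 and 0 FPKM across Con and at 0.11, 0 and 0.01 FPKM in Abx, so it was close to 0 throughout (exact permutation test, p = 0.7). *Per3* (chromosome 4, 151003652 to 151044665) was at 0.51, 1.93 and 0.36 FPKM across Con and at 0.01, 0.69 and 0.01 FPKM in Abx. Library 2 was the highest in both groups and kept them overlapping (exact permutation test, p = 0.3). *Per1* was above *Per3* in 3 of 3 Abx libraries and in 0 of 3 Con libraries.

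*Per1* is also known to be induced directly by glucocorticoids and by signals that act within minutes, so lists of both kinds of gene were read beside it. Of 6 glucocorticoid targets, 4 were tested, 0 were called, and before adjustment 1 was higher and 0 lower at p under 0.05, where 4.74% of all genes tested were higher and 6.25% lower. *Fkbp5*, a chaperone of the glucocorticoid receptor, was at 2.63, 0.05 and 7.17 FPKM across Con and 20.7, 20.4 and 42.7 FPKM in Abx, with no overlap (log2 fold change 3.12, standard error 0.87, limma adjusted p = 0.184). *Klf9*, a transcription factor under glucocorticoid and clock control, did not overlap either, at 1.03 to 3.46 FPKM across Con and 5.2 to 8.98 FPKM in Abx (limma adjusted p = 0.493). *Dusp1*, a phosphatase that belongs to both lists, overlapped, with a range of 519.8 to 1087 FPKM for Con and 287 to 669 FPKM for Abx (limma adjusted p = 0.456). *Tsc22d3*, a leucine zipper protein, had a log2 fold change of -0.37 and overlapped as well, and *Sgk1*, a kinase under the filter, was at 0, 0.96 and 1.73 FPKM in Con libraries but 0.01, 0 and 0 FPKM in Abx libraries. Of the 4 tested, 2 had a higher mean log value in Abx and 2 a lower one. The summed level of the 6 genes was 549 to 1187 FPKM across Con and 364 to 724 FPKM in Abx. Most of this sum was *Dusp1*, so it mainly follows that gene.
Of 10 immediate-early genes, 9 were tested, 0 were called, and before adjustment 3 were lower and 0 higher at p under 0.05. These 3 were *Atf3*, *Nr4a1* and *Junb*, with log2 fold changes of -1.87, -1.21 and -0.73 (limma adjusted p = 0.0911, 0.113 and 0.226). Of the 9 tested, 8 had a lower mean log value in Abx and 1, *Jun*, a higher one (log2 fold change 0.49, limma adjusted p = 0.813). *Egr1*, under the filter, was at 0.01, 0 and 0 FPKM across Con and 8.3, 0 and 3.42 FPKM in Abx. The summed level of the 10 genes was 7503 to 12777 FPKM across Con and 4868 to 10817 FPKM across Abx. The part of either signal in the *Per1* values was not tested.

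*Cry1* (chromosome 10, 85131700 to 85185064), the cryptochrome that most strongly inhibits BMAL1 and CLOCK, was at 1 FPKM or more in all 6 libraries, the only member of which this held. It was at 10.6, 20.9 and 8.25 FPKM across Con and at 17.4, 1.33 and 3.05 FPKM in Abx. Abx libraries 2 and 3 lay below every Con library, and Abx library 1 within their range. The log2 fold change was -1.25 (SE 0.91, limma adjusted p = 0.695), with a 95% interval of -3.36 to 0.86, and it ran from -2.11 without Abx library 1 (limma adjusted p = 0.304) to -0.62 without Abx library 2.
*Cry2* (chromosome 2, 92403646 to 92434043), its paralog, was at 0.01, 1.12 and 2.88 FPKM across Con and at 0.13, 0.03 and 0.04 FPKM in Abx. No Abx library came near Con libraries 2 and 3, but Con library 1 was the lowest of all (exact permutation test, p = 0.4). Its exons share 295 of 6320 bases with *D930015M05Rik* on the opposite strand, which was at 2.53 FPKM in Con library 3, where *Cry2* was highest, and listed at 0 in the other libraries.

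*Dbp* (chromosome 7, 45705088 to 45710203), a transcription factor and direct output of the loop, was at 2.92, 13.2 and 2.18 FPKM across Con and at 8.73, 8.02 and 0 FPKM across Abx. The order within Abx followed *Nr1d1*, with libraries 1 and 2 alike and library 3 near 0. Its log2 fold change was -0.34 (SE 1.13, limma adjusted p = 0.939), which turned to 0.74 without Abx library 3 and to 0.33 without Con library 2. The exons of *Dbp* share 539 of 2993 bases with *Sphk2* on the opposite strand. *Sphk2* was at 14.2 to 19.9 FPKM across Con and at 14.8, 5.85 and 19.8 FPKM in Abx, so *Dbp* was listed at 0 in a library where *Sphk2* was high.

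**Figure D2:**
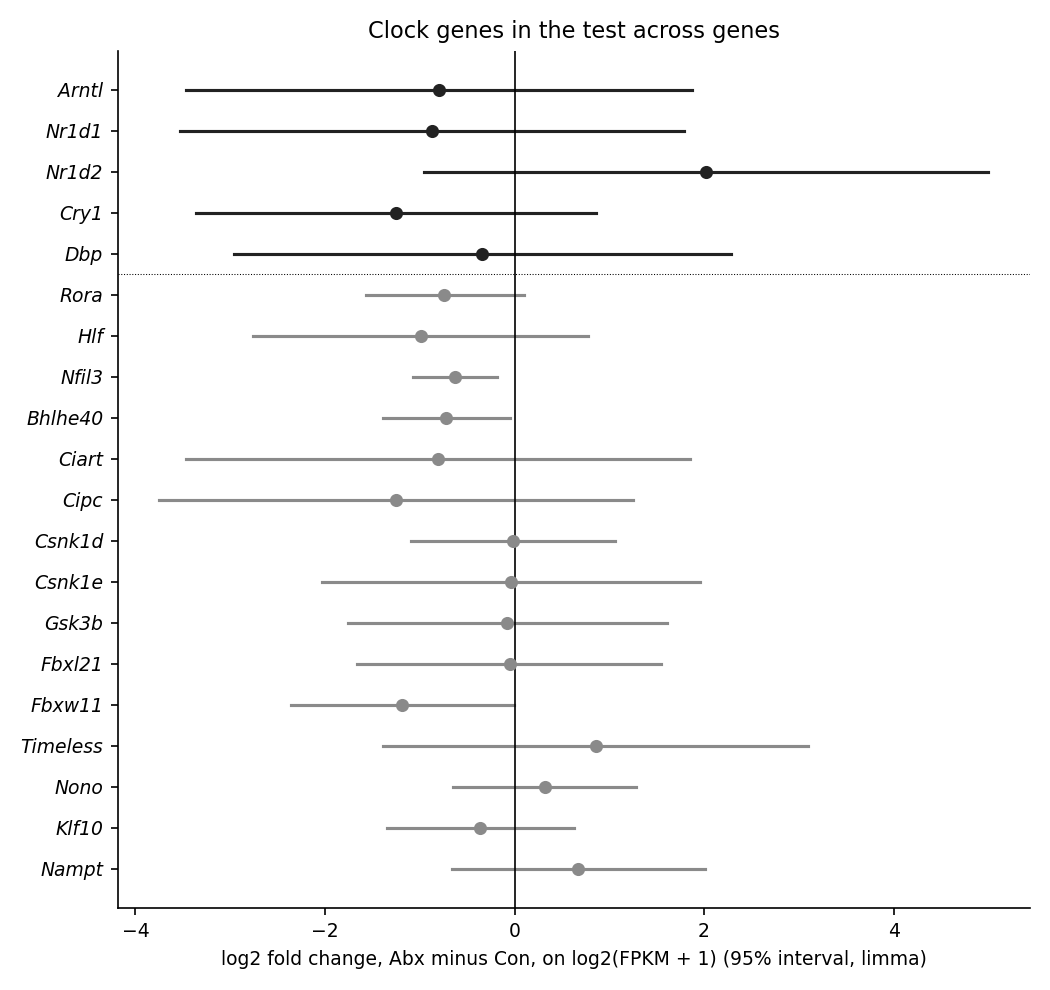
Log2 fold change (Abx minus Con, on log2(FPKM + 1)) with its 95% interval from limma for the 5 clock members (black) and 15 of the 17 other genes of the clock list (grey) that passed the filter. All 5 black intervals cross 0, and the grey intervals of *Nfil3*, *Bhlhe40* and *Fbxw11* end just below it.

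The level of a member varied widely between libraries of a group. In 5 of the 5 members tested, the highest library of at least 1 group was over 10 times the lowest in that group, as it was in 48.2% of all genes tested and in 62.9% of those with a mean between 2 and 20 FPKM. The SD within groups on the log2(FPKM + 1) scale was 1.18 to 1.87 for the 5 members, with a median of 1.6, against a median of 0.85 over all genes tested and 1.16 over those between 2 and 20 FPKM. Such swings were therefore common among genes of this level in these libraries.

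As a first reading, the activators were set against all other members in each library. Of those others, only *Nr1d1*, *Dbp* and *Per3* are described above as peaking opposite to *Arntl*. This wide score is therefore not a strict measure of clock phase. The mean log2(FPKM + 1) of *Arntl* and *Clock* minus that of the other 8 members was -0.02, 0.54 and -0.70 in Con libraries 1, 2 and 3, and -2.17, 1.25 and 0.69 in Abx libraries 1, 2 and 3. The mean was -0.06 ± 0.62 in Con and -0.08 ± 1.84 in Abx (SD, n = 3 each), a difference of -0.02. Single libraries moved this difference, which was 1.03 without Abx library 1, -0.68 without Abx library 2, -0.40 without Abx library 3, 0.29 without Con library 2 and -0.34 without Con library 3, and it was 0.45 with a pseudocount of 0.01. The Con values lay inside the range of the Abx values, and Abx held both the lowest and the 2 highest libraries. Without *Cry1* the difference was -0.18. *Clock*, *Per1*, *Per2*, *Per3* and *Cry2* had means below 1 FPKM, so much of the score rests on *Arntl*, *Nr1d1*, *Nr1d2*, *Cry1* and *Dbp*. No test was made, since this is a score over the chosen members.
A narrower reading used the members known for large swings in antiphase, *Arntl* against the mean of *Nr1d1* and *Dbp*. For Con libraries this difference was -0.18, 0.34 and -0.79, and for Abx libraries -3.69, 0.38 and 2.09. Abx library 1 stood at the end with *Arntl* low against *Nr1d1* and *Dbp*, Abx library 3 at the opposite end, and Abx library 2 near Con. The group means were -0.21 ± 0.57 in Con and -0.41 ± 2.97 in Abx (SD, n = 3 each), a difference of -0.20. It was 1.44 without Abx library 1, -0.59 without Abx library 2, -1.45 without Abx library 3, 0.08 without Con library 2, -0.49 without Con library 3 and 0.34 with a pseudocount of 0.01, so neither reading gives a direction.
The members did not move as 1 antiphase pair in every library. In Abx library 1, *Arntl* was near 0 while *Nr1d1*, *Nr1d2*, *Cry1* and *Dbp* were each at 8.73 FPKM or more. In Con library 2 and Abx library 2, *Arntl*, *Nr1d1* and *Dbp* were all at 8.02 FPKM or more together. In Abx library 3, *Arntl* was at an intermediate level, *Nr1d1* and *Dbp* were near 0, and *Nr1d2*, which belongs to the same arm, was at 22.0 FPKM.

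**Figure D3:**
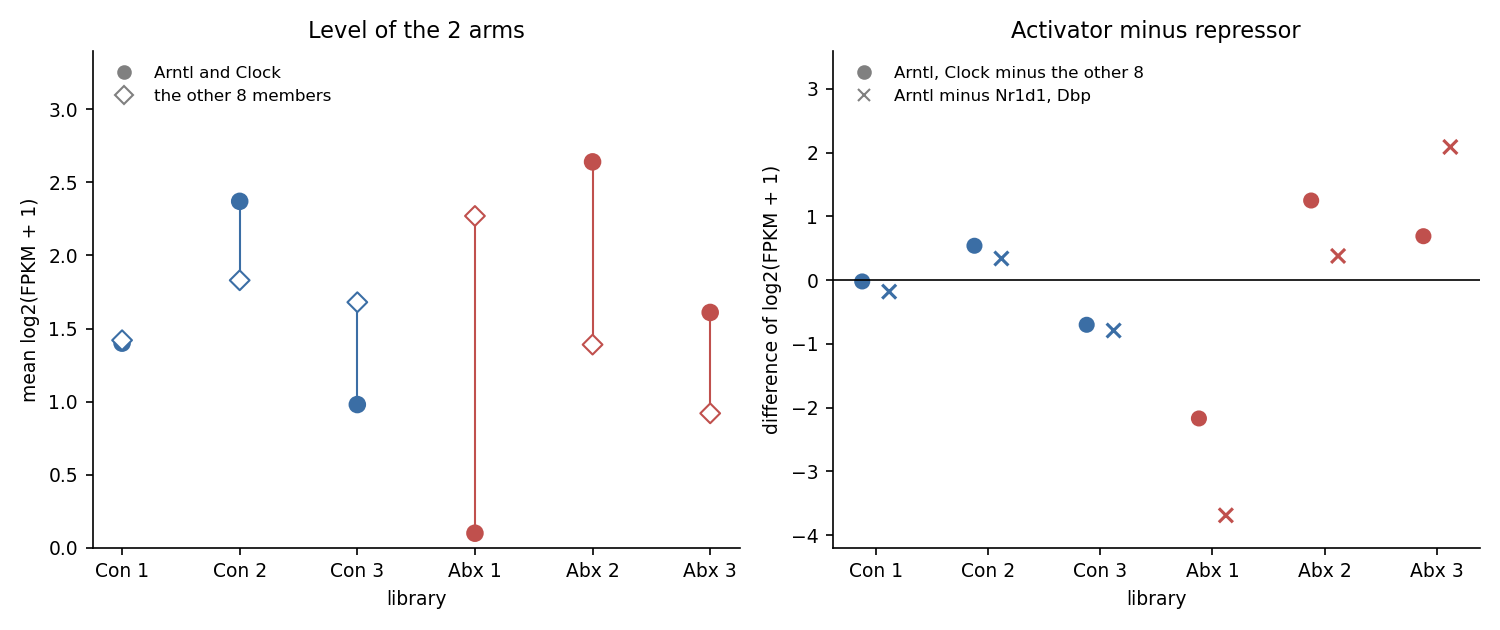
Left, the mean log2(FPKM + 1) of *Arntl* and *Clock* (filled circles) and of the other 8 members (open diamonds) in each library, joined by a line, with Con in blue and Abx in red. Right, the difference of log2(FPKM + 1) between activators and the other 8 members (circles) and between *Arntl* and the mean of *Nr1d1* and *Dbp* (crosses). Con libraries stay between -0.79 and 0.54, and Abx libraries reach from -3.69 to 2.09.

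Other genes of the clock were read from a list of 26 that holds further activators, other repressors, kinases, ubiquitin ligases and outputs. Of these, 17 were tested and limma called 0. Before adjustment, 3 were lower and 0 higher at p under 0.05, where 6.25% of all genes tested were lower. Of the 17, 14 had a lower mean log2(FPKM + 1) in Abx and 3 a higher one, where 4621 of all 8718 genes tested were lower. The median log2 fold change was -0.36 against -0.06 over all genes tested. Some of the 14 were close to 0, such as *Csnk1d* at -0.02 and *Csnk1e* at -0.04, whose mean FPKM was higher in Abx. The count of 3 at p under 0.05 was 1 with median centring, with the replicate block and without Con library 2 or 3 or Abx library 2 or 3, and 5 without Abx library 1. The split was 13 lower and 4 higher with quantile normalization or median centring, 11 lower and 6 higher without Abx library 1, and the list was lower in the median under every scaling tried. The summed level of the 26 genes was 857 to 1099 FPKM across Con and 579 to 811 FPKM in Abx. Most of this sum was *Bhlhe40*, *Nfil3* and *Rora*, with means of 357, 209 and 66.7 FPKM over the 6 libraries. It thus mainly follows these abundant genes and does not describe the list as a whole.

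The level of these genes ran from near 0 to that of the most abundant, *Bhlhe40*. *Nfil3*, a repressor that competes with DBP for D-boxes, was at 237, 248 and 276 FPKM across Con and 171, 155 and 164 FPKM across Abx. The groups were 254 ± 20.2 and 164 ± 7.80 FPKM (SD, n = 3 each) and did not overlap. The log2 fold change came to -0.63 (SE 0.19, limma adjusted p = 0.222). Its value stayed between -0.75 and -0.57 over all alternatives, and none brought it to an adjusted p under 0.05.
*Bhlhe40*, a repressor that binds E-boxes, was at 351, 463 and 504.3 FPKM across Con and 389, 205 and 231 FPKM in Abx. Abx library 1 lay within Con and the other Abx libraries below it. The log2 fold change was -0.72 (SE 0.29, limma adjusted p = 0.404).
*Rora*, the activator of *Arntl* and a lineage factor of ILC2s, showed the same order of libraries in Abx, at 73.9, 35.1 and 43.5 FPKM, against 64.8, 83.2 and 99.9 FPKM in Con (log2 fold change -0.74, standard error 0.36, limma adjusted p = 0.517). *Rora* was above *Nr1d1*, whose product competes for the same elements, in 6 of 6 libraries.
*Fbxw11*, a ubiquitin ligase subunit that takes part in PER degradation, was at 22.6, 16.6 and 16.7 FPKM across Con and 9.65, 7.64 and 5.78 FPKM in Abx, with no overlap (log2 fold change -1.19, standard error 0.51, limma adjusted p = 0.451). Among genes tested, the groups did not overlap in 17.2%. In the list they did not in 3 of 17, the third being *Nampt*, an enzyme of NAD synthesis and output of the clock, which was named after its values were seen. It was at 5.77 to 8.55 FPKM across Con and 8.71 to 14.2 FPKM in Abx (limma adjusted p = 0.736).

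**Figure D4:**
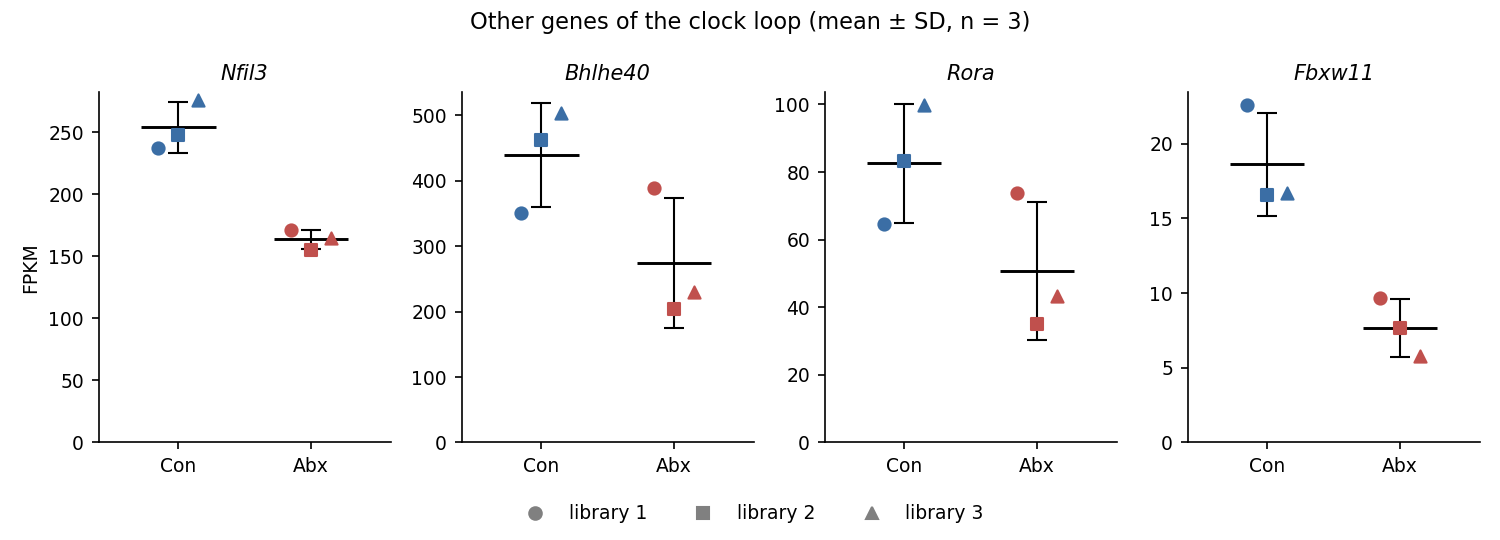
FPKM of *Nfil3*, *Bhlhe40*, *Rora* and *Fbxw11* in the 3 Con (blue) and 3 Abx (red) libraries, with axes from 0 and bars and whiskers for mean ± SD (n = 3). *Nfil3* and *Fbxw11* have all Abx libraries below all Con libraries, and Abx library 1 lies within the Con range for *Bhlhe40* and *Rora*.

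The kinases that phosphorylate PER proteins showed small differences with wide intervals. *Csnk1d* was at 23.3 to 41.0 FPKM across Con and 17.9 to 48.7 FPKM in Abx, with a log2 fold change of -0.02 and a 95% interval of -1.09 to 1.06. *Csnk1e* was lower in level, at 1.38 to 3.36 FPKM across Con and 0.11 to 7.36 FPKM in Abx. *Ciart*, a repressor of BMAL1 that is a strong clock output in other tissues, was at 0, 8.27 and 4.02 FPKM across Con and 0, 7.63 and 0 FPKM in Abx. Like *Arntl*, *Ciart* was highest in library 2 of each group. *Hlf*, a relative of *Dbp*, was at 5.9 to 10.9 FPKM across Con and 1.27 to 6.42 FPKM in Abx, while *Tef*, the third of these factors, stayed below 1 FPKM in every library.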

How the data were processed

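SMART-seq libraries of sorted lung ILC2s were compared, 3 Abx and 3 Con. The deposited FPKM values were made by the authors per gene with Cutadapt, HISAT2 and StringTie, per their methods, which name a human Ensembl annotation although the identifiers are mouse. The submitters' processing notes name Bowtie 0.12.2, mm8 and mm9 instead, so the build behind the values is uncertain, and coordinates come from GENCODE M21 (GRCm38). Depth is unknown and strand was not recorded.

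Groups were taken from the sample titles. Values were tested as log2(FPKM + 1) with limma 3.58.1 (lmFit, eBayes with trend) in R 4.3.3 on genes that reached 1 FPKM in 3 or more libraries, and single genes under that filter with an exact permutation test. The authors used DESeq2, which needs counts. The fit was run on simulated normal values drawn with the variances of the fit itself. Those values lack the many zeros of the real libraries, so this checks the code and not how well the model suits these data. No 2 libraries held identical values. The labels do not say that replicates came from separate litters, so p-values measure the spread between these libraries.

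All 10 members and all 26 other clock genes were read. Of the latter, those with an unadjusted p under 0.05 or a mean of at least 50 FPKM were to be named, and some others, added after their values were seen, are given by role. Some genes of the list are not reported here by name. Members and lists were chosen with earlier results of these data known. The alternatives were pseudocounts of 0.1 and 0.01, TPM scaling, quantile normalization, median centring, no filter, a mean of at least 5 FPKM, robust variance, the replicate number as a block and each library left out.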

Additional observations from a re-analysis of the deposited data

How the results depend on the processing

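The count of clock members called stayed at 0 under all 15 alternatives, as did that of the other clock genes. The count over all genes tested, 5, went to 0 with a pseudocount of 0.1 or 0.01, with median centring and with no filter, and to 3 with TPM scaling, while 866 to 1191 genes had an unadjusted limma p under 0.05 under these. The count of genes called was 7 with quantile normalization and with a mean of at least 5 FPKM, and 5 with robust variance. It was 0 to 2 with a library left out. TPM scaling moved the median log2 fold change of all genes tested from -0.06 to -0.18. The sign of *Arntl*, *Nr1d1* and *Dbp* turned with a library left out, with log2 fold changes from -1.77 to 0.19, -1.61 to 0.51 and -0.90 to 0.74. Of 81 fold changes of the 5 members tested and of *Nfil3*, *Bhlhe40*, *Fbxw11* and *Rora* under the other alternatives, 0 turned, but sizes moved, over -1.84 to -0.43 for *Arntl*, -2.06 to -0.70 for *Nr1d1*, 2.02 to 3.55 for *Nr1d2*, -1.56 to -1.23 for *Cry1* and -2.31 to -0.04 for *Dbp*, with the largest at a pseudocount of 0.01. A smaller pseudocount widens log differences between values near 0 and higher ones. *Arntl*, *Nr1d1*, *Nr1d2* and *Dbp* each had a library at 0.09 FPKM or less, and *Cry1* was at 1.33 FPKM or more in every library. The part of such low values in these shifts was not tested.

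Replicate numbers did not pair the libraries: same-numbered libraries had deviations from their group means that correlated at -0.0286 to 0.00971, and Con library 1 correlated best with Abx library 2. With the replicate block, 0 genes were called over all genes tested, 858 had an unadjusted p under 0.05, and 0 clock members were called. The number of reads is unknown, so what depth limits could not be stated, and members below 1 FPKM carry the least weight.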
